A study of Mus musculus with 12 samples.

Results

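The circadian clock genes described here are Per1, Per2, Per3, Cry1, Cry2, Bhlhe40, Dbp, Tef, Nr1d1 and Nr1d2, that is 10 of the 23337 gene symbols in the count table. They were taken by symbol, but the list was chosen with earlier results of these data known. All 10 passed the filter on low counts that left 12406 genes for testing. They encode repressors and outputs of the molecular clock, and were followed across RNA-seq libraries of mouse urothelial cells with and without knockdown of Stag2, which encodes a subunit of the cohesin ring that holds and folds chromosomes.

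The cells were NU1, a line of normal mouse urothelium (the epithelium that lines the bladder) that became immortal on its own during passaging. Lentiviral short hairpins were used, either shNT, the control, labelled wild type, or sh4, labelled Stag2 knockdown. Only 1 knockdown hairpin is represented, so its effect and that of losing Stag2 cannot be told apart. Each hairpin was studied in proliferating cultures and in quiescent cultures, labelled day 7, which had been grown to confluence and then given 1 µM rosiglitazone, an agonist of the nuclear receptor PPAR gamma, with 0.5 µM erlotinib, an inhibitor of the EGF receptor kinase. Only the quiescent cultures are labelled with these drugs, so growth state, confluence and drugs cannot be told apart in any comparison of the states. All 4 groups shared a medium with serum, EGF, insulin, transferrin, triiodothyronine, hydrocortisone and cholera toxin. Each group had 3 libraries, numbered experiment 5, 7 and 9, which the labels place in batches 3, 1 and 2. Whether the cultures were pools of infected cells or clones, and the hour at which they were harvested, are not given in the sources used here, and the part of either in the values below was not tested.

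In the mammalian clock the activators CLOCK and ARNTL (also called BMAL1) bind E-boxes, short DNA elements in promoters, and switch on Per and Cry genes, whose proteins then inhibit those same activators. The same activators drive Nr1d1 and Nr1d2, which encode the REV-ERB nuclear receptors, repressors of Arntl, and drive Dbp and Tef, which encode proline and acidic amino acid rich (PAR) leucine zipper factors that bind D-boxes. Most tissues, epithelia included, hold such a clock, but cells of a culture drift apart in phase unless a stimulus such as serum or glucocorticoid sets them together, so that the RNA of a whole culture averages over their phases.

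Library totals ran from 14524429 to 21987539 counts. Levels are given as CPM, counts per 1000000 counts of a library after scaling by the trimmed mean of M values (TMM), and always in the order of experiments 5, 7 and 9. Stag2 itself was at 139, 145 and 113 CPM in proliferating controls and at 33.3, 24.9 and 24.6 CPM in proliferating knockdown cells. In quiescence it was at 128, 126 and 107 CPM in controls and at 9.43, 15.3 and 11.7 CPM in knockdown cells. The knockdown groups lay below their controls in every experiment, with log2 fold changes of -2.26 (SE 0.19, adjusted p = 0.00121) and -3.32 (SE 0.20, adjusted p = 3.39e-05). Summed markers of urothelium, mostly keratins 7, 8, 18 and 19 with Epcam and Cdh1, ranged from 12112 to 22756 CPM over all libraries, while the basal regulator Trp63 was at 0 in every library. The uroplakins, which mark differentiated urothelium, were close to 0: Upk1a reached at most 3.94, Upk1b 2.23, Upk2 1.45 and Upk3a 0.0453 CPM in any library. Summed fibroblast, smooth muscle and endothelial markers reached at most 2.22, 0.656 and 0.239 CPM, and leukocyte markers 9.42 CPM. The proliferation genes Mki67 and Top2a summed to between 310 and 709 CPM in proliferating and between 2.07 and 74.8 CPM in quiescent libraries. All pairs of replicates differed by far more than sampling noise, and nothing in the labels says how the experiments were kept apart beyond their number and batch, so the p-values measure the spread between these libraries.

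Promoter sequences are shown first because several of these genes are known to be driven through E-boxes and D-boxes. RefSeq promoter windows on GRCm38.p6, from 250 bases before to 50 bases after a start site, were at hand for 8 of the 10 genes, in 10 windows, since Per1 and Tef have more than 1 start. The E-box CACGTG was in the windows of Per1, Cry1 and Tef, in 4 of the 10 windows, against 7.15% of all 32851 windows in the table. Both Tef windows held it, and both are printed 5′ to 3′ on the strand of the gene, with the element in capitals. The first, whose element starts 127 bases before the start site, is chr15:81802535-81802562 on the plus strand, within an exon of Tef and of the antisense gene Gm17597 in GENCODE M21. The second, at 138 bases before a downstream start, is chr15:81811265-81811292, within an intron of Tef. The E-boxes of Cry1 (60 bases before the start, chr10:85185098-85185125, minus strand, intergenic) and Per1 (166 bases before the start, chr11:69098772-69098799, plus strand, in an intron of the longest annotated gene model) are given with them.
Tef, first start: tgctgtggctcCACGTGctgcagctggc
Tef, second start: acctggcccagCACGTGtctacatcgtt
Cry1: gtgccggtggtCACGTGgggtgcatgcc
Per1: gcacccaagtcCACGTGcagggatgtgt

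The variant CACGTT, called the E-prime box, was in the windows of Cry1, Cry2 and Nr1d1, in 3 of 10 windows against 4.68% of all windows. In Nr1d1 it starts 28 bases before the start site and reads on the opposite strand, at chr11:98775389-98775416 on the minus strand, between genes. The D-box, searched as TTATGNAA, was in 3.38% of all windows and in those of Per1 and Per3. Per3 carried it at 2 places, chr4:151044852-151044881 and chr4:151044805-151044834, both on the minus strand and in an intron of the neighbouring gene Camta1. The half-site AGGTCA, to which ROR and REV-ERB receptors bind, was in the windows of Per1 and Nr1d2 and in 16.3% of all windows; in Nr1d2 it lies at chr14:18239167-18239194 on the minus strand, between genes.
Nr1d1, E-prime box: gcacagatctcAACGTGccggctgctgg
Per3, D-box 205 bases before the start: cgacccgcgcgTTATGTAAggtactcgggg
Per3, D-box 158 bases before the start: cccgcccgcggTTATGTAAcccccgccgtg
Nr1d2, receptor half-site: attggaagaagAGGTCAggaccgctcgt

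Both strands were searched for each motif. Only exact matches to the letters given, within these windows, were sought, so variants and more distant elements would be missed. The E-box and the E-prime box differ in their last letter, so a site counts as 1 of them, and the cyclic AMP element shares letters with the receptor half-site. The cyclic AMP response element TGACGTCA (1.79% of all windows) and the cell cycle homology element TTTGAA (17.9%) were in none of the 10. The Dbp window held none of the 6 motifs, and neither did that of the downstream Per1 start (chr11:69099902-69100201). All Per1 matches were in the window of its other start. These matches describe the letters of the windows and were not tied to binding in these cells.

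Per1 was the period gene with the highest level. It encodes a repressor that is also an immediate response gene to glucocorticoid and cyclic AMP. Proliferating controls had 70.2, 93.0 and 105 CPM and proliferating knockdown cells 85.5, 104 and 106 CPM. Quiescent controls had 93.7, 107 and 93.9 CPM and quiescent knockdown cells 95.7, 129 and 115 CPM. Every pair of groups overlapped, and the highest library was only 1.84 times the lowest. Knockdown cells lay above their controls in all 3 experiments in both states, by small amounts (log2 fold change 0.14, SE 0.16, in proliferation and 0.21, SE 0.16, in quiescence), and neither passed the test (adjusted p = 0.9998 and 0.699).

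Per2, a repressor of the same family whose loss disturbs rhythms in mice, had the largest called difference between the growth states. It was at 3.59, 4.50 and 2.84 CPM in proliferating controls and at 4.95, 5.96 and 3.62 CPM in proliferating knockdown cells. In quiescent controls it was at 6.07, 12.3 and 3.04 CPM, a wide spread, with experiment 9 still within the range of the proliferating cultures. Quiescent knockdown cells had 13.7, 13.8 and 11.0 CPM, above every proliferating library. From proliferation to quiescence it rose 2.64-fold in knockdown cells (log2 fold change 1.40, SE 0.42, adjusted p = 0.0384), which was the only member change to pass the test without a term for the experiment. The call was lost when any 1 of the 6 libraries of that comparison was left out, with adjusted p-values from 0.0703 to 0.119. With a term for the experiment the rise was 1.44 (adjusted p = 0.0028), and it was called in 12 of 12 such fits that left out a library. In control cells the same step gave a log2 fold change of 0.97 (SE 0.42, adjusted p = 0.126), and with a term for the experiment 0.86 (adjusted p = 0.0365). Knockdown in quiescent cells gave 0.84 (SE 0.41, adjusted p = 0.457), made up of differences of 1.16, 0.16 and 1.81 within experiments 5, 7 and 9.

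Per3, the period gene that is dispensable for rhythm in most settings, was the scarcest member per length of transcript. Its counts ran from 38 to 113, so that counting error alone is a sizeable part of its spread. It was at 3.42, 3.12 and 2.16 CPM in proliferating controls and at 4.08, 2.68 and 2.75 CPM in proliferating knockdown cells. Quiescent controls had 3.45, 2.45 and 3.16 CPM and quiescent knockdown cells 3.58, 4.17 and 6.62 CPM. The quiescent knockdown libraries lay above all quiescent controls, in experiment 5 by 0.05 on the log2 scale within the experiment, and the fitted change of 0.66 (SE 0.32, adjusted p = 0.453) did not pass the test.

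**Figure D1:**
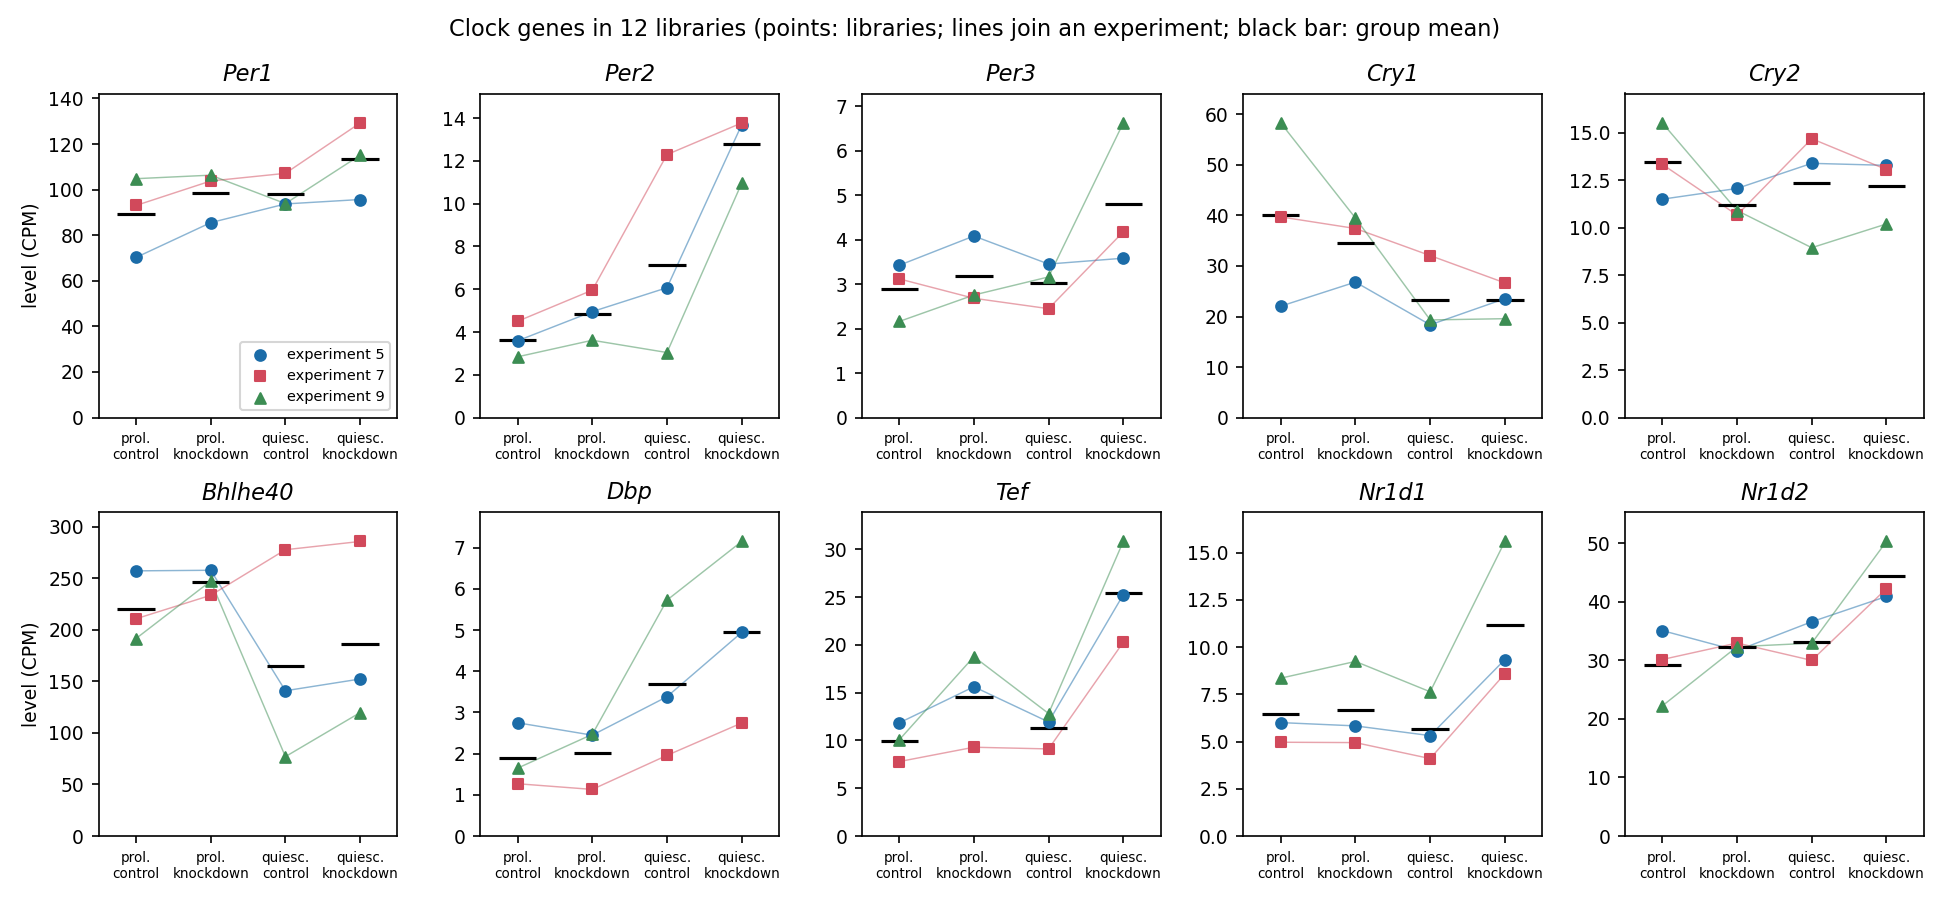
Level of each clock gene in CPM (vertical axis, linear, from 0) in the 4 groups (horizontal axis); each point is a library, its shape and colour give the experiment, thin lines join the libraries of an experiment and the black bar is the mean of 3. In quiescent knockdown cells Tef (20.3 to 30.8 CPM) and Nr1d1 (8.59 to 15.6 CPM) lie above the quiescent controls in every experiment, whereas Bhlhe40 follows the experiment, from 77.0 to 278 CPM in quiescent controls.

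Cry1 was the member that was lower in quiescence in all 3 experiments with both hairpins. It encodes the stronger cryptochrome repressor of most cells and is itself repressed by REV-ERB receptors. Its level was 22.05, 39.7 and 58.3 CPM in proliferating controls and 26.8, 37.4 and 39.5 CPM in proliferating knockdown cells. Quiescent controls had 18.4, 32.1 and 19.3 CPM and quiescent knockdown cells 23.5, 26.7 and 19.6 CPM. In each experiment and with either hairpin the quiescent library lay below its proliferating partner, by 0.26, 0.31 and 1.59 on the log2 scale in control cells and by 0.19, 0.49 and 1.01 in knockdown cells. In the knockdown cells no quiescent library reached the lowest proliferating one, though by a narrow margin (26.7 against 26.8 CPM). The fitted changes were -0.78 (SE 0.33, adjusted p = 0.112) in control and -0.57 (SE 0.32, adjusted p = 0.244) in knockdown cells, and only the first passed with a term for the experiment (-0.76, adjusted p = 0.0493). Knockdown in quiescence gave a log2 fold change of -0.00 with an SE of 0.32.

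Cry2, the second cryptochrome, was the member with the narrowest range, its highest library being 1.73 times its lowest. It stayed between 8.95 and 15.5 CPM in all 12 libraries, with means of 13.4 ± 2.01, 11.2 ± 0.75, 12.3 ± 3.01 and 12.2 ± 1.72 CPM (SD, n = 3) in proliferating control, proliferating knockdown, quiescent control and quiescent knockdown cells. No comparison passed the test, with or without a term for the experiment.

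Bhlhe40 encodes DEC1, a repressor that competes for E-boxes and also answers to hypoxia and growth signals. Per length of transcript it was the most abundant member in every group. Proliferating controls had 257, 211 and 191 CPM and proliferating knockdown cells 258, 233 and 247 CPM. Quiescent controls had 141, 278 and 77.0 CPM and quiescent knockdown cells 152, 286 and 120 CPM. The experiments disagreed on quiescence: the level was lower in experiments 5 and 9 and higher in experiment 7, with either hairpin, as the log2 differences of -0.87, 0.40 and -1.31 in control cells show. The fitted change in control cells was -0.41 (SE 0.40), and no comparison of this gene passed the test, with or without a term for the experiment.

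Dbp encodes D-box binding protein, a PAR leucine zipper activator whose transcript is among the most strongly rhythmic in many tissues. It had few counts, from 19 to 122 per library, with the lowest values in experiment 7 in every group. Proliferating controls had 2.75, 1.27 and 1.65 CPM and proliferating knockdown cells 2.45, 1.13 and 2.47 CPM. Quiescent controls had 3.38, 1.96 and 5.72 CPM and quiescent knockdown cells 4.94, 2.74 and 7.15 CPM. Quiescent libraries were above their proliferating partners in 3 of 3 experiments with either hairpin, and in the knockdown cells the groups did not overlap. The log2 fold change on quiescence was 0.96 (SE 0.50, adjusted p = 0.198) in control and 1.29 (SE 0.50, adjusted p = 0.098) in knockdown cells. With a term for the experiment, which takes out the low level of experiment 7, both passed, at 0.90 (adjusted p = 0.0358) and 1.28 (adjusted p = 0.00697). In GENCODE M21 an exon of Sphk2 on the opposite strand shares 539 bases with Dbp exons (18.0% of them), and the strand setting used in counting is not stated. Sphk2 itself had a log2 fold change on quiescence of 0.38 (adjusted p = 0.238) in control and 0.43 (adjusted p = 0.191) in knockdown cells. Its means were 47.3 and 39.4 CPM in proliferating control and knockdown cells, and 61.3 and 52.9 CPM in quiescent ones. These were well above every Dbp value. Whether shared reads enter the Dbp values was not tested.

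Tef, thyrotroph embryonic factor, is the PAR leucine zipper relative of Dbp and showed the largest knockdown difference of the 10 genes. In proliferating cells it was at 11.8, 7.79 and 10.1 CPM with the control hairpin and at 15.6, 9.29 and 18.8 CPM with the knockdown hairpin. In quiescent cells it was at 11.9, 9.12 and 12.8 CPM with the control hairpin and at 25.3, 20.3 and 30.8 CPM with the knockdown hairpin. All 3 quiescent knockdown libraries exceeded the other 9, and experiment 7 was the lowest in each group. In quiescent cells the knockdown libraries were 2.25-fold above controls (log2 fold change 1.17, SE 0.27), with an adjusted p of 0.0968 without and 0.00535 with a term for the experiment. The differences within experiments 5, 7 and 9 were 1.07, 1.14 and 1.26 on the log2 scale, so the experiments gave nearly the same size. In proliferating cells the knockdown libraries were also above their controls in 3 of 3 experiments, by 0.40, 0.25 and 0.89, but the fitted 0.56 (SE 0.27) did not pass (adjusted p = 0.9998, and 0.948 with a term for the experiment). The step into quiescence gave 0.19 in control cells (SE 0.27, adjusted p = 0.66). In knockdown cells it gave 0.81 (SE 0.27, adjusted p = 0.0593), and 0.83 (adjusted p = 0.00236) with the experiment term.

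Nr1d1 encodes REV-ERB alpha, the nuclear receptor that represses Arntl and Cry1. Proliferating controls had 6.003, 4.96 and 8.35 CPM and proliferating knockdown cells 5.83, 4.94 and 9.24 CPM. Quiescent controls had 5.31, 4.10 and 7.63 CPM and quiescent knockdown cells 9.34, 8.59 and 15.6 CPM. The proliferating pairs differed by at most 0.14 on the log2 scale within an experiment, and experiment 9 was the highest in every group, so that the knockdown difference in quiescence shows best within experiments. There it was 0.80, 1.05 and 1.02 on the log2 scale, and every quiescent knockdown library lay above all 3 quiescent controls. The fitted change was 1.96-fold (log2 fold change 0.97, SE 0.35), with an adjusted p of 0.284 without and 0.0101 with a term for the experiment. The latter call was lost without the control or the knockdown library of experiment 9, with an adjusted p of up to 0.0618. In proliferating cells it was 0.05 (SE 0.34). On entry into quiescence Nr1d1 was lower in all 3 control experiments (by 0.17, 0.27 and 0.13) and higher in all 3 knockdown experiments (by 0.67, 0.78 and 0.75). The knockdown-cell change of 0.74 passed the test with a term for the experiment (adjusted p = 0.00345) and not without (SE 0.34, adjusted p = 0.157), while the control change of -0.18 (SE 0.35, adjusted p = 0.753) passed neither way. Thra, the thyroid hormone receptor gene on the opposite strand, shares 263 exon bases with Nr1d1 (8.55% of them). Its log2 fold change with knockdown in quiescence was -0.35 (adjusted p = 0.526), with levels of 20.4, 18.3 and 24.0 CPM in controls and 16.4, 15.6 and 17.3 CPM in knockdown cells. Whether shared reads enter the Nr1d1 values was not tested.

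Nr1d2, which encodes REV-ERB beta, had knockdown differences of the same sign as Nr1d1 in quiescence and of smaller size. Proliferating controls had 35.1, 30.1 and 22.2 CPM and proliferating knockdown cells 31.6, 32.9 and 32.3 CPM. Quiescent controls had 36.6, 29.98 and 32.9 CPM and quiescent knockdown cells 40.9, 42.2 and 50.3 CPM. The 3 quiescent knockdown libraries were the highest of all 12. Their log2 difference from quiescent controls was 0.42 (SE 0.16, adjusted p = 0.327, and 0.163 with a term for the experiment). Their difference from proliferating knockdown cells was 0.46 (SE 0.16, adjusted p = 0.0704, and 0.0475 with a term for the experiment).

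Read as a set, the 10 genes in proliferating cells showed no called knockdown effect (0 of 10, against 0.0242% of all genes tested by edgeR at an adjusted p under 0.05), and 0 by DESeq2, against 0.0967%. None had an unadjusted p under 0.05, against 1.84% of all genes. With a term for the experiment only Tef did, against 5.2%, and 0 were called, again against 0.0242% of genes. No member's groups failed to overlap, against 5.31% of all genes, and 4 of 10 (Per1, Per2, Bhlhe40 and Tef) were higher in all 3 experiments, against 20% of all genes. The median log2 fold change was 0.14 for the members and -0.00 for all genes.

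In quiescent cells 0 of 10 were called without a term for the experiment, against 0.435% of all genes, and 3 (Tef, Nr1d1 and Nr1d2) had an unadjusted p under 0.05, against 12%. DESeq2 called Tef alone (adjusted p = 0.00525), against 3.14% of all genes. With that term 2 were called, Tef and Nr1d1, both higher, against 3.55% of all genes in either direction and 1.59% higher. An unadjusted p under 0.05 was then found for 5 members (these 2 with Per2, Per3 and Nr1d2), against 2527 of 12406 genes. The groups did not overlap, with knockdown higher, for 4 members (Per3, Tef, Nr1d1 and Nr1d2), against 10.2% of all genes. Knockdown was higher in all 3 experiments for 8 members, all but Cry1 and Cry2, against 25.4% of all genes. The median was 0.42 for members and 0.02 for all genes. For the 21 other clock pathway genes tested, described below, it was 0.03, with 52.4% of estimates positive. The members were chosen with earlier results of these data known. Member counts above the shares of all genes, here and in the comparisons below, are therefore no separate support. Beside these differences, quiescent knockdown libraries also had the higher summed urothelial markers (21149 to 22756 CPM, against 12112 to 18862 CPM in quiescent controls) and, in part, more RNA of Mki67 and Top2a (12.7 to 74.8 CPM summed, against 2.07 to 22.4 CPM). Of that urothelial list, Krt8, Krt18 and Krt19 had estimates of 0.59, 0.52 and 0.52, Krt7 of 0.17 and Epcam of -0.08. Cdh1 was at 2311, 1714 and 1737 CPM in controls and 1568, 1285 and 1058 CPM in knockdown cells (-0.56, adjusted p = 0.591), so it lay lower in all 3 experiments. The fitted values for Mki67 and Top2a were 1.92 and 1.56 (adjusted p = 0.312 and 0.388). The part of either in the clock gene values was not tested, and in bulk RNA more cells expressing a gene and more RNA per cell cannot be told apart.

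**Figure D2:**
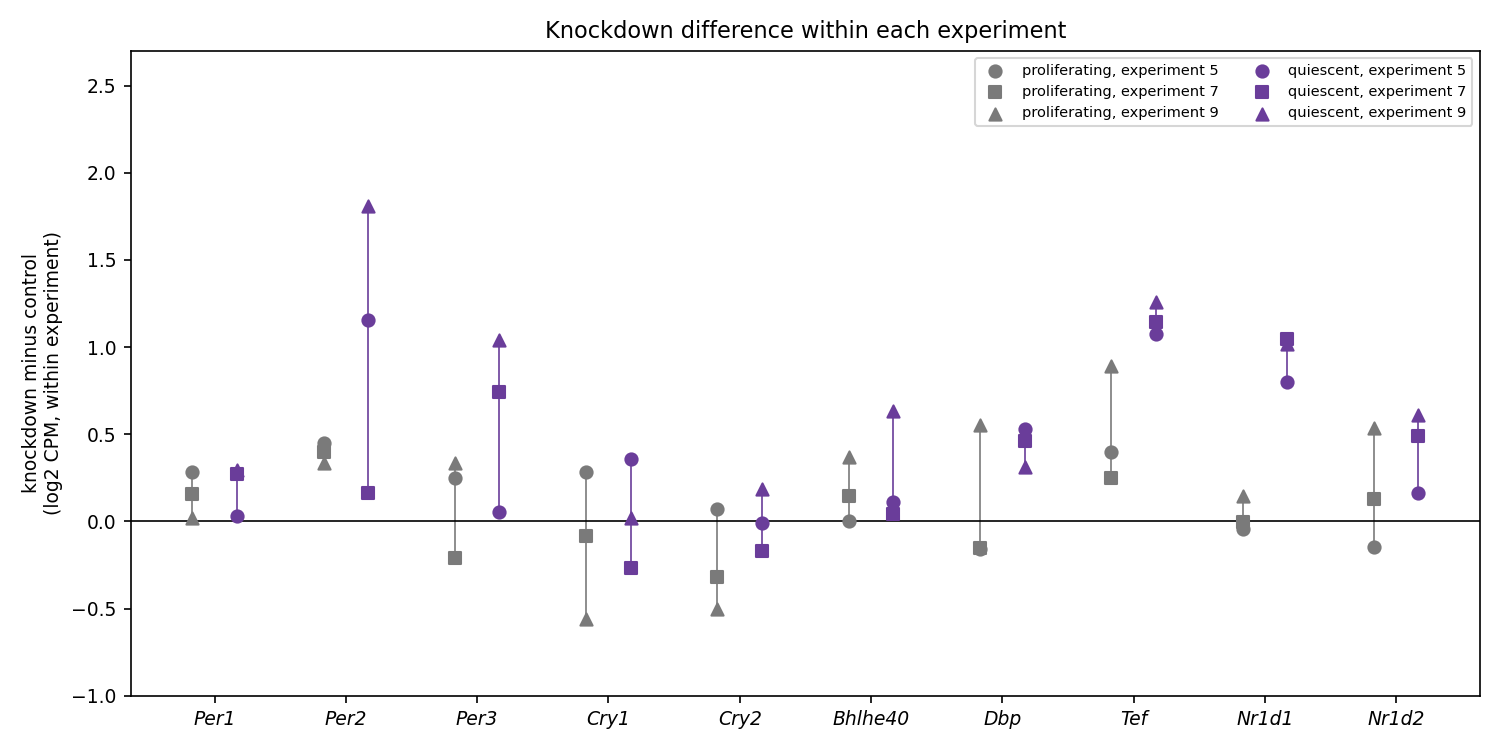
Knockdown minus control library within each experiment, in log2 CPM (vertical axis), for each clock gene (horizontal axis); grey marks are proliferating and purple marks quiescent cultures, shapes give the experiment and vertical lines span the 3. Tef (1.07 to 1.26) and Nr1d1 (0.80 to 1.05) have tight positive differences in quiescence, while Per2 spans 0.16 to 1.81 and Cry1 crosses 0 in both states.

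Quiescence in control cells changed 0 of 10 members without a term for the experiment, against 20% of all genes, and 0 by DESeq2, against 25.9%. An unadjusted p under 0.05 was found for 2 members (Per2 and Cry1), against 34.8% of all genes. With the term Per2 and Dbp were called higher, against 16.8% of all genes, and Cry1 lower, against 18.5%. These 3 calls depended on single libraries: with each library left out in turn, Dbp was called in 6, Per2 in 5 and Cry1 in 4 of 12 fits. No member had groups without overlap, against 35.6% of all genes. In knockdown cells quiescence changed 1 member, Per2, against 18.4% of all genes in either direction and 7.59% higher. With the term 5 were higher (Per2, Dbp, Tef, Nr1d1 and Nr1d2), against 15.9% of all genes, and 0 lower, against 17.2%. The first 4 of these were called in 12 of 12 fits with 1 library left out, and Nr1d2 in 3. Groups did not overlap for Per2, Dbp, Tef and Nr1d2, all higher, against 18.1% of all genes, and for Cry1, lower, against 19.1%. The medians of the members were 0.10 in control and 0.53 in knockdown cells, and those of all genes 0.00 in both. The quiescence step in knockdown cells and the knockdown comparison in quiescence share the quiescent knockdown libraries, so the higher levels of Tef, Nr1d1 and Nr1d2 in both rest on the same 3 libraries.

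Whether the knockdown effect differed between states was tested as an interaction. All 10 estimates were positive, as were 51.5% of those of all genes. No member and no gene passed by edgeR (0% of genes with or without a term for the experiment). By DESeq2 6 genes passed, none of them a member. An unadjusted p under 0.05 in edgeR was found for 0 of 10 members without the term and 2 with it, against 219 and 590 of 12406 genes. The largest member estimates were those of Nr1d1 (0.92, SE 0.49, adjusted p = 0.9997, and 0.526 with the experiment term) and Tef (0.62, SE 0.38, adjusted p = 0.9997, and 0.885 with the experiment term). A difference between the knockdown effects in the 2 states was thus not detectable for these genes with 3 libraries a group.

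**Figure D3:**
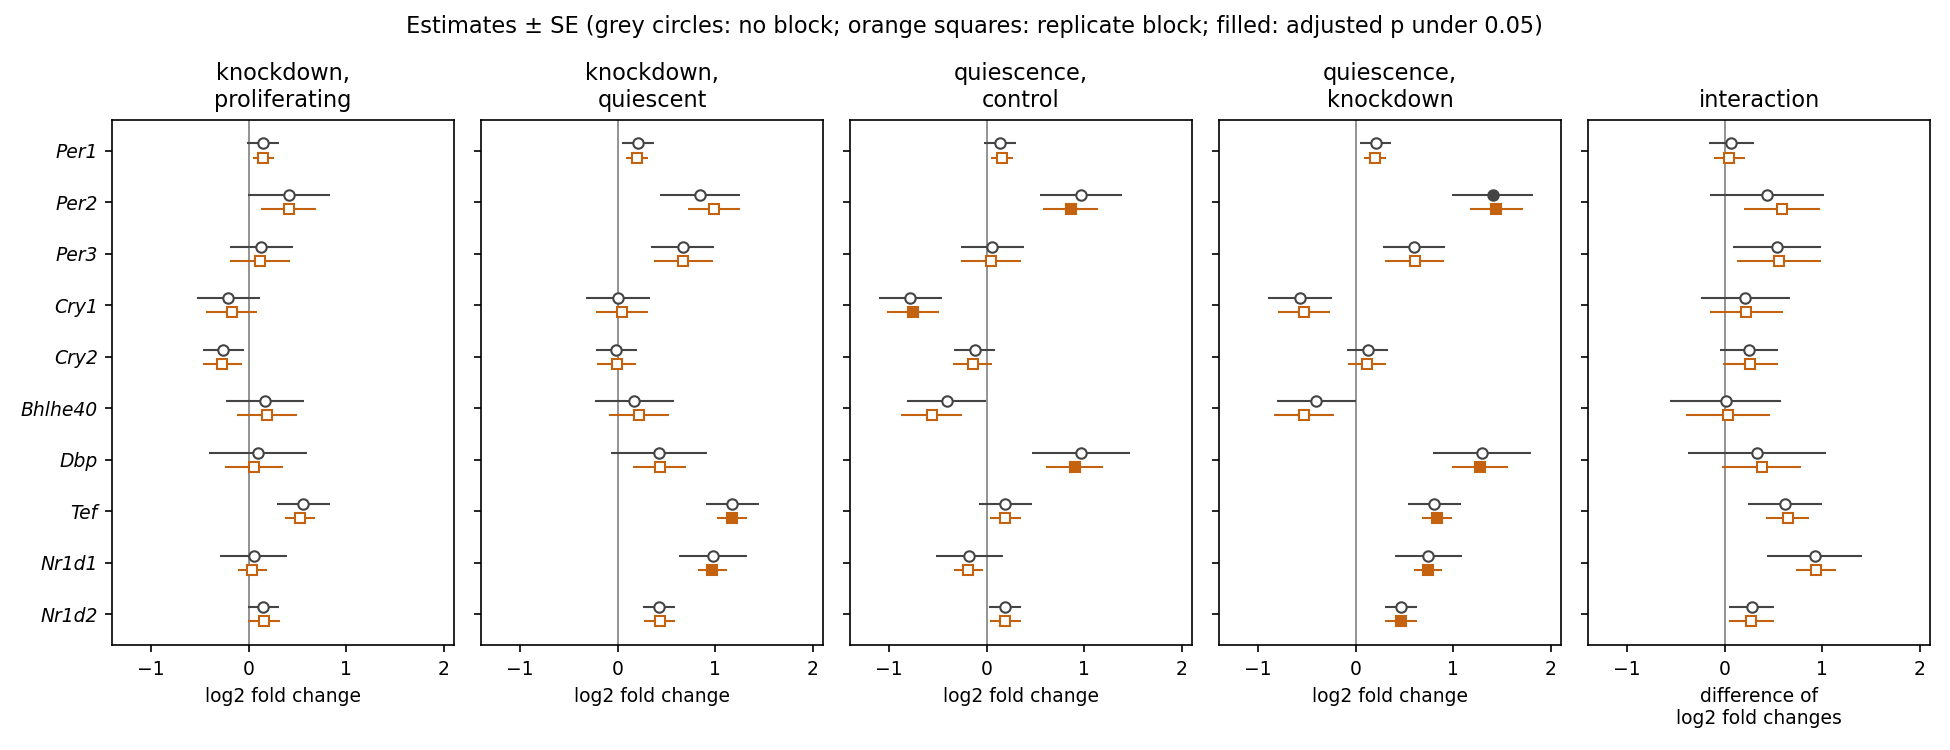
Estimated log2 fold change with its standard error (horizontal axis) for each clock gene (vertical axis) in the 4 comparisons and the interaction, without (grey circles) and with (orange squares) a term for the experiment; filled marks have an adjusted p under 0.05. The term moves few estimates but narrows the errors of Tef, Nr1d1 and Dbp, and Per2 on quiescence in knockdown cells (1.40) is the filled grey mark.

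The variance of log2 CPM over the 12 libraries was split in order into growth state, hairpin, their interaction, experiment and a rest, as a description of each gene. Hairpin took 49.4% for Tef, the largest share of it for any member, and the rest only 4.07%. For Nr1d1 the experiment took 47.8%, hairpin 23.5% and the interaction 20.6%, with 0.965% left over. Growth state took the most for Dbp (47.4%), Per2 (44.5%), Cry1 (42.1%) and Nr1d2 (34.3%). Per1 was mostly divided by experiment (47.5%), and so, apart from the rest, was Bhlhe40 (33.7%), whereas 67.1% of the variance of Cry2 and 46.1% of that of Per3 fell to none of the terms.

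**Figure D4:**
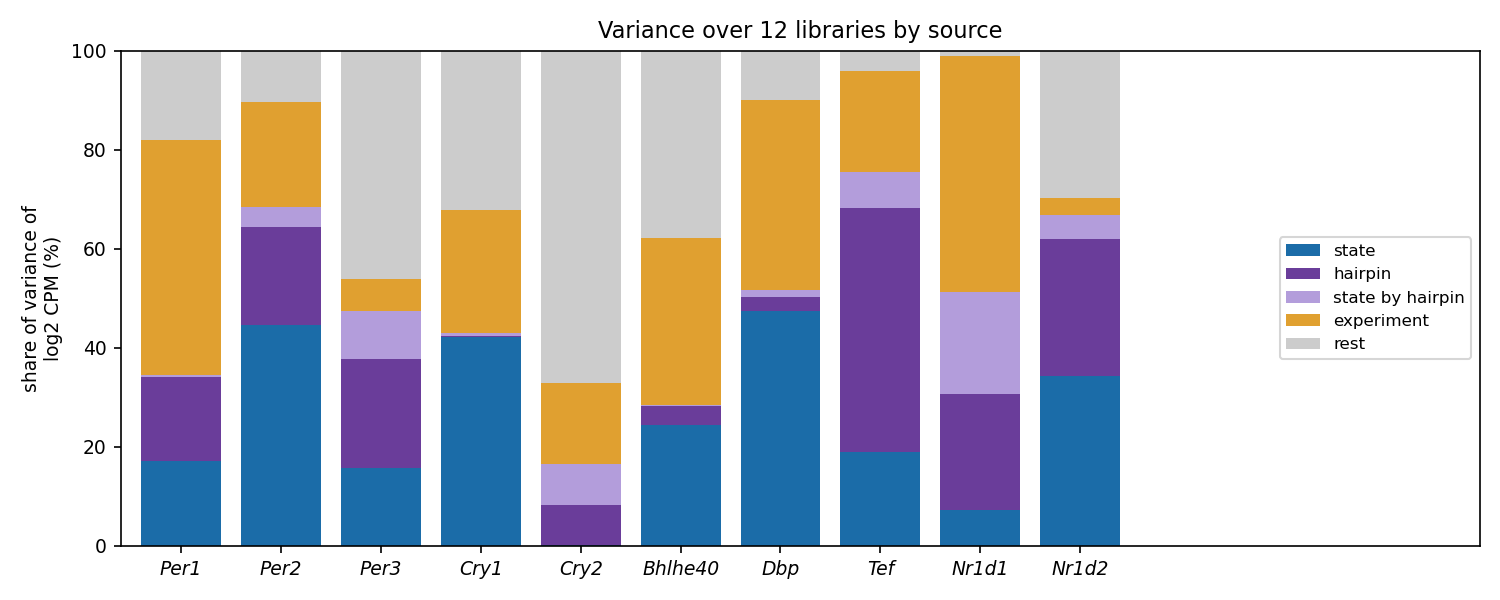
Share of each clock gene's variance in log2 CPM over 12 libraries, in percent (vertical axis), taken by growth state, hairpin, state by hairpin, experiment and the rest (stacked colours). Tef has the largest hairpin share (49.4%), Nr1d1 the smallest rest (0.965%) and Cry2 the largest rest (67.1%).

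Levels can be compared between genes only per length, here as CPM per kilobase of merged exons. In proliferating controls the order of the means was Bhlhe40 (46.7), Per1 (15.9), Cry1 (11.98), Nr1d2 (5.39), Cry2 (2.13), Nr1d1 (2.09), Tef (1.26), Dbp (0.631), Per2 (0.622) and Per3 (0.302). The neighbours Per1 and Cry1 (SD 3.12 and 5.43), Cry2 and Nr1d1 (SD 0.318 and 0.564) and Dbp and Per2 (SD 0.257 and 0.142) lay within their spread. In quiescent knockdown cells Nr1d2 (8.22 ± 0.94) stood above Cry1 (6.96 ± 1.06, SD, n = 3) in mean, Nr1d1 (3.63 ± 1.25) and Tef (3.23 ± 0.67) were next, and Per2 (2.19 ± 0.27) stood above Cry2 (1.93 ± 0.27). Bhlhe40 (39.5) and Per1 (20.1) led and Per3 (0.499) was last there too.

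Other genes of the pathway reported here numbered 23, of which 21 were tested. Npas2 did not pass the filter and Hlf, the third PAR leucine zipper gene, had no count in any library. No gene among the 21 was called for knockdown in either state, with or without a term for the experiment, and 1, Bhlhe41, had an unadjusted p under 0.05 in quiescence, against 12% of all genes. This paralog of Bhlhe40 was at 10.3, 16.6 and 35.5 CPM in quiescent controls and 3.67, 6.14 and 12.8 CPM in quiescent knockdown cells, with a log2 fold change of -1.47 (SE 0.53, adjusted p = 0.294, and 0.0577 with the experiment term). It was lower with knockdown in each of the 3 experiments, the opposite direction to Tef and Nr1d1, though the groups overlapped. Of the activator genes, Arntl had means of 26.7 ± 3.67 and 24.3 ± 3.05 CPM (SD, n = 3) in proliferating control and knockdown cells. In quiescence its means were 26.7 ± 2.18 CPM in control and 22.9 ± 1.71 CPM in knockdown cells, and these groups did not overlap. The differences within experiments 5, 7 and 9 were -0.22, -0.19 and -0.24 on the log2 scale. The fitted -0.22 (SE 0.14) was not called (adjusted p = 0.618, and 0.294 with the experiment term). In proliferating cells Arntl was also lower with knockdown in all 3 experiments (-0.01, -0.24 and -0.15), with overlapping groups (adjusted p = 0.9998). Clock was not called in any comparison either.

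Calls on quiescence among the other pathway genes were close in number to the shares of all genes. In control cells 2 of the 21 were higher and 2 lower, against 8.33% and 11.7% of all genes. With a term for the experiment 5 were higher and 4 lower, against 16.8% and 18.5%. In knockdown cells 1 was higher and 3 lower, against 7.59% and 10.8%, and with the term 5 and 4, against 15.9% and 17.2%. Wee1, a cell cycle kinase gene under clock control, rose by 1.46 on the log2 scale in control cells (adjusted p = 0.00677). In knockdown cells it rose by 1.41 (adjusted p = 0.00891). Timeless and Tipin, partners at the replication fork as well as in the clock, fell by 2.79 and 2.08 on the log2 scale in control cells and by 2.15 and 1.66 in knockdown cells. Fbxw11, a ubiquitin ligase subunit that acts on period proteins, rose by 0.34 (adjusted p = 0.0465) in control cells, and Rorb, a gene of the ROR nuclear receptor family, fell by 1.79 (adjusted p = 0.0135) in knockdown cells.

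**Figure D5:**
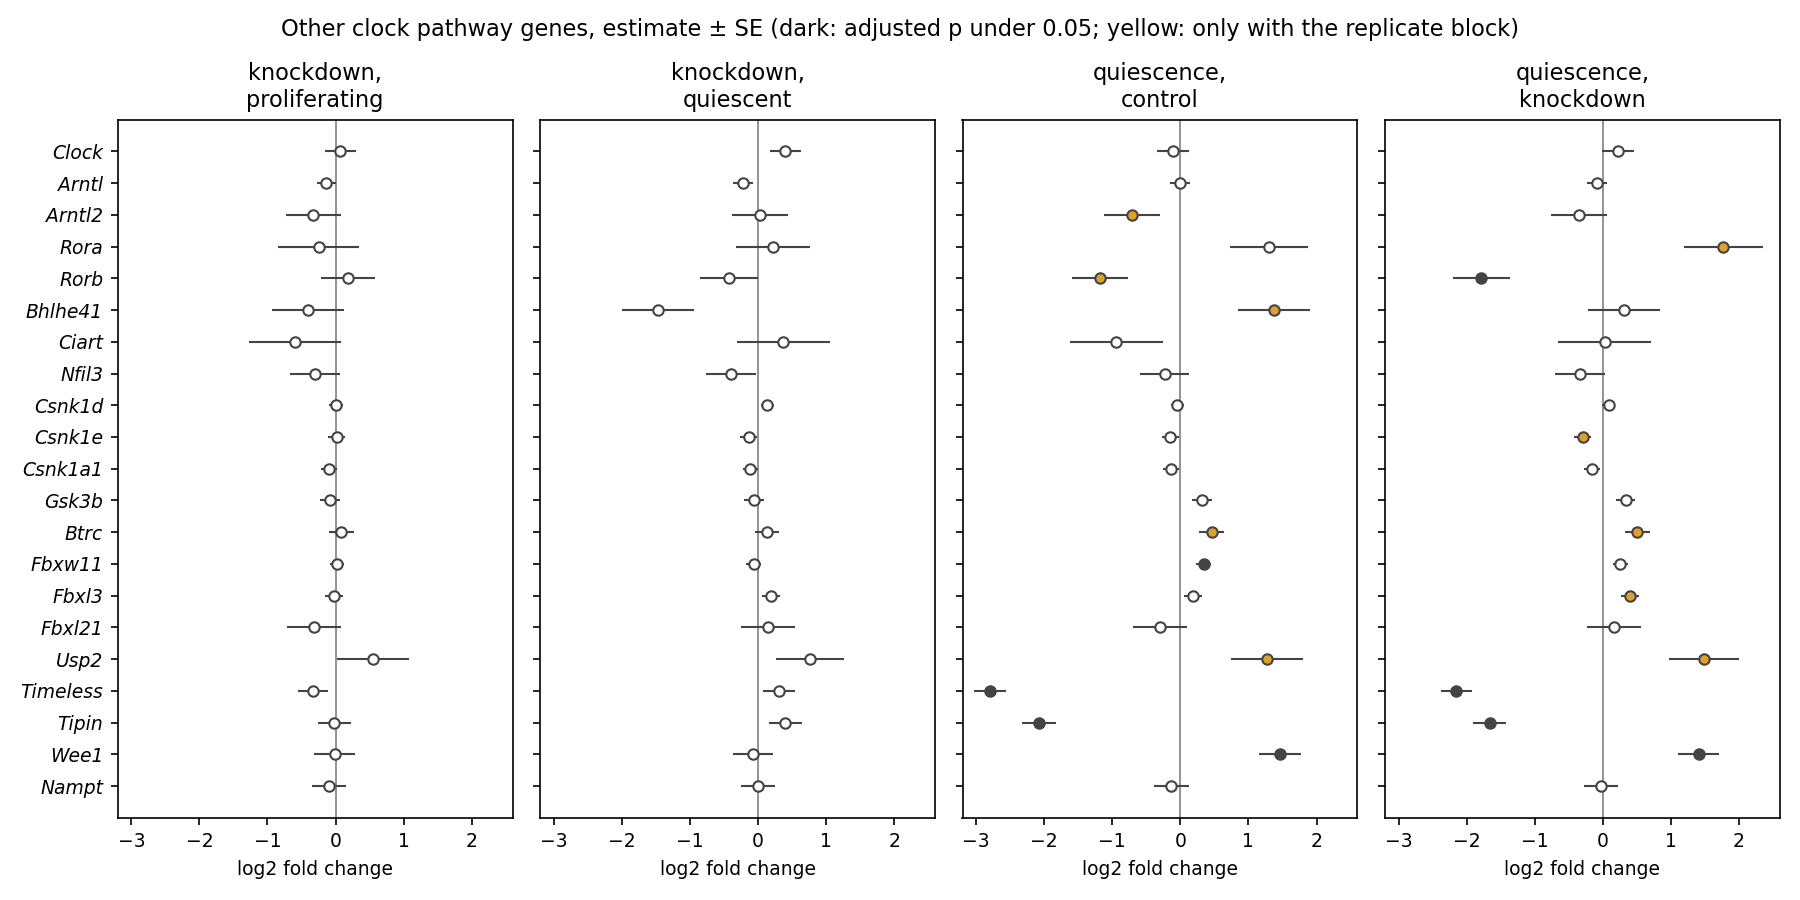
Estimated log2 fold change with its standard error (horizontal axis) for 21 other genes of the clock pathway (vertical axis) in the 4 comparisons; dark points have an adjusted p under 0.05 and yellow points pass with a term for the experiment and not without. The 2 knockdown panels hold no filled point, and Timeless (-2.79 in control cells) is the gene farthest from 0 on quiescence.

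Since the medium held hydrocortisone and cholera toxin, genes known to answer glucocorticoid or cyclic AMP were set beside Per1, which answers to both. Of 6 glucocorticoid genes, 2 were higher in quiescence with either hairpin (Zbtb16 and Dusp1), against 8.33% of all genes in control and 7.59% in knockdown cells. With a term for the experiment 4 were higher in control and 4 in knockdown cells, against 16.8% and 15.9%. None was called for knockdown without that term, against 0.0242% of all genes in proliferation and 0.435% in quiescence. With the term 1 was lower with knockdown in quiescence, Fkbp5 (log2 fold change -1.16, adjusted p = 0.0201), against 3.55% of all genes in either direction. It was at 377, 437 and 203 CPM in controls and 209, 150 and 93.8 CPM in knockdown cells. Of 5 tested cyclic AMP genes, Sik1 was higher in quiescence with either hairpin and Nr4a1 in knockdown cells, against the same 8.33% and 7.59%. With the experiment term 4 were higher in control and 2 in knockdown cells, against 16.8% and 15.9%. Nr4a1 was also higher with knockdown in quiescence with the experiment term (1.04, adjusted p = 0.0432), against 1.59% of all genes higher. It was at 46.8, 24.8 and 44.9 CPM in controls and 68.4, 71.6 and 97.0 CPM in knockdown cells. The part of either signal in the clock gene values was not tested.

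The genes whose profile was most like that of each member were found by the root mean square difference of centred log2 CPM over the 12 libraries, among 10931 candidates. For Tef these were Ccdc62 (0.250) and Pdk1 (0.255), and the nearest member was Nr1d1 (0.314). For Nr1d1 they were Dzip1l (0.239) and Avpi1 (0.240), with Tef as the nearest member. For Per2 they were Tmem8 (0.284) and 6430548M08Rik (0.297), and for Dbp Oas1c (0.196) and Mfsd9 (0.229). Per3 and Nr1d2 were each other's nearest member (0.207), and for Per3 no candidate came closer than Pvrl4 (0.209). The root mean square of a member's own centred profile sets the scale of these distances, being 0.392 for Per3 and 0.282 for Nr1d2. It was smallest for Per1 (0.212) and Cry2 (0.219) and largest for Per2 (0.808). Small distances for Per1 and Cry2 thus go partly with flat profiles. Cry1 was nearest to Polr1b (0.116) and Nat10 (0.133), Per1 to Zbtb11 (0.106), Cry2 to Hspa4 (0.112), Bhlhe40 to Fam102b (0.270) and Nr1d2 to Mfn2 (0.106). With each experiment centred on its own mean, the nearest genes of Tef became Asb1 (0.194) and Tmem86a (0.197), those of Nr1d1 Mipep (0.147) and 2310046O06Rik (0.163), and the member nearest to Nr1d1 became Nr1d2 (0.229), while Tef was still nearest to Nr1d1 (0.243).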

How the data were processed

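The authors deposited raw counts per gene symbol and library in 1 table; per the submitters' processing notes the reads were processed with Bowtie, TopHat, HTSeq and DESeq2 on mm10. Versions, annotation and the strand setting are not given in the sources used here. Per the labels' protocols, ERCC spike-in RNA was added and stranded libraries were prepared from the polyA fraction; the table holds 0 ERCC rows, and 5762 symbols had no count.

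The counts went into edgeR 4.0.16 (R 4.3.3), where filterByExpr (minimum count 10) set the genes tested. Libraries were TMM-scaled and fitted as 4 groups over all 12 libraries with the quasi-likelihood test; p-values were adjusted by Benjamini-Hochberg over 12406 genes, with a threshold of 0.05. Log2 CPM used a prior count of 2. A fit with the experiment as replicate block was also run: experiment coincides with the labelled batch, and residuals of same-experiment libraries correlated at 0.526 on average (0.225 to 0.789, 18 pairs), against -0.259 in 36 pairs of other experiments and groups. Each group was centred on its own mean, so the second value largely follows from the first. DESeq2 1.42.0, other scaling, other filters and leaving out each library were tried too. The test script was checked on simulated data. Every member is described. The members, the lists of other genes and the rule for naming their genes (those past the threshold, and those asked for by role) were chosen with earlier results of these data known. 1 gene of the pathway list is not reported here. Gene positions are from GENCODE M21 (GRCm38). No pair of replicates was identical. Counting error from these totals covers sampling only.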

Additional observations from a re-analysis of the deposited data

Results flagged for a closer look

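Nr1d1 was singled out because its change on quiescence had opposite directions with the 2 hairpins in every experiment. All 3 control experiments were lower in quiescence (by 0.17, 0.27 and 0.13 on the log2 scale) and all 3 knockdown experiments higher (by 0.67, 0.78 and 0.75). The difference between the 2 changes was 0.92 (SE 0.49). Tested as an interaction in edgeR it did not pass over all genes, with an adjusted p of 0.9997 (unadjusted 0.0838) and, with a term for the experiment, 0.526 (unadjusted 0.00104). The gene was singled out by these same differences, so the unadjusted values are no separate support. Of 12406 genes, 219 without and 590 with the term had an unadjusted p under 0.05. No cause was tested.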

How the results depend on the processing

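The number of members called depended mainly on the replicate block, that is on the term for the experiment. With it, 2 members were called for knockdown in quiescent cells, 3 for quiescence in control and 5 for quiescence in knockdown cells, in place of 0, 0 and 1; replicate block together with median-of-ratios size factors gave the same 2, 3 and 5. The DESeq2 Wald test called 1 (Tef) for knockdown in quiescent cells and 3 (Per2, Tef and Nr1d2) for quiescence in knockdown cells, against 3.14% and 24.1% of all genes. In proliferating cells and for the interaction these settings called 0. Over all genes, knockdown in quiescence called 54, 440 with the block, 390 with DESeq2 and 38 with the 6 libraries of that comparison alone. Quiescence in control cells called 2481, 4374 with the block and 1582 with its own 6 libraries, and quiescence in knockdown cells 2279 and 4096 with the block.

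Leaving out each library in turn gave 0 to 0 called members for knockdown in proliferating cells, 0 to 0 for knockdown in quiescent cells, 0 to 1 for quiescence in control cells, 0 to 2 for quiescence in knockdown cells and 0 to 0 for the interaction. With the block these ranges were 0 to 0, 1 to 3, 0 to 3, 4 to 7 and 0 to 0. Tef in quiescent knockdown cells was called in 12 of 12 such blocked fits (1.12 to 1.25) and Nr1d1 in 10 of 12, the exceptions being those without the control or the knockdown library of experiment 9 (largest adjusted p 0.0618). Of the blocked quiescence calls in control cells, Dbp was called in 6, Per2 in 5 and Cry1 in 4 of 12 fits, and in knockdown cells Nr1d2 in 3 of 12. No called value changed sign under any setting run. Uncalled estimates near 0 changed sign in 34 of 600 fits that left out a library, in 40 of 600 with the block as well and in 6 of 340 others. The depth limits Per3 and Dbp most, with at least 38 and 19 counts per library.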
